A study of Homo sapiens with 36 samples.

Results

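The 42 genes described here code for proteins of nucleolar ribosome biogenesis, and they were followed in the neuroblastoma lines BE(2)-C and IMR-32, both MYCN-amplified, after RNAi against HDAC11. They were chosen by gene symbol: every probe whose deposited annotation names one of the 42 genes was taken. The array held 38 of them, with 64 of the 47320 probes tested and 38 of the 20045 genes these probes name. No probe was found for WDR43, DDX18, EBNA1BP2 and GNL3. Both lines were grown in DMEM with serum and transfected, using the HiPerFect reagent, with HDAC11 siRNA no. 1 (siHDAC11_3 from Ambion, directed to exon 8), HDAC11 siRNA no. 2 (siHDAC11_7 from Qiagen) or the AllStars negative control siRNA (Qiagen). Cells were harvested after 42, 48 and 54 h. Each of the 18 groups of line, siRNA and time had 2 replicate arrays, 36 in all, so that a siRNA had 6 arrays in a line. All groups, controls included, carried a transfected siRNA, and no untransfected cells were among the arrays. No source states that the replicates were cultured separately. The p-values therefore measure the spread between arrays, which may be technical. In RNA of whole cultures, fewer cells with a transcript and less transcript per cell cannot be told apart.

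Ribosomes are assembled in the nucleolus, where RNA polymerase I transcribes the precursor ribosomal RNA. Small nucleolar ribonucleoproteins (snoRNPs) modify the precursor, the small subunit processome and the large subunit factors cut and fold it, and scaffold proteins hold the machinery together. The genes of this machinery are known targets of MYC proteins, which bind the E-box CACGTG. The members are ordered below by these roles: 5 with a probe belong to RNA polymerase I transcription, 7 to the snoRNP core proteins, 11 to small subunit processing, 11 to large subunit processing and 4 to the nucleolar scaffold.

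The reagents themselves are shown by the target site of HDAC11 siRNA no. 2, on chromosome 3, since much of what follows turns on how the siRNAs differ. No sequence of siRNA no. 1 was given in the sources used here.
siRNA no. 2 target site in HDAC11: gcgagacttcatggacgacaa
The promoters are shown because a number of the members moved together, as described below. RefSeq windows of GRCh38.p14, from 250 bases before to 50 bases after a gene's start, were present for 34 of the 42 genes. At least 1 CACGTG, which reads the same on both strands, lay in the windows of 16 of these 34 genes (47.1%). The share was 8.77% of all 27305 genes with a window, and 7.26% of all 35116 windows. The motif was chosen after expression values had been seen, and a match is a description of the sequence, not a binding site. Below, windows of 30 bases are printed in the direction of the gene, with CACGTG in capitals. They belong to 7 of the 10 members that carry the motif and rose with siRNA no. 2 in IMR-32 cells. Those of GAR1, NOP14 and UTP20 are not printed. The printed windows were thus picked by that call. Also not printed are those of FBL, NOP10 and PES1, which carry the motif and were not called in that comparison. EBNA1BP2, GNL3 and WDR43 carry it too but have no probe. Of the members printed, LYAR and MRTO4 were called lower with siRNA no. 1 in IMR-32 cells.
NOP2, chr12:6568242-6568271, minus strand: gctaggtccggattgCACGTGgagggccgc
MRTO4, chr1:19251807-19251836, plus strand: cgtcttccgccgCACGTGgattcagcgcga
UTP18, chr17:51260445-51260474, plus strand: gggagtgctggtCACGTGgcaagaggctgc
UTP18, chr17:51260538-51260567, plus strand: gcagcgaggttcCACGTGagcgcctgcgtt
RRP9, chr3:51941892-51941921, minus strand: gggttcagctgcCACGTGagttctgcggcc
LYAR, chr4:4290068-4290097, minus strand: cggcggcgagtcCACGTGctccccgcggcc
BYSL, chr6:41921515-41921544, plus strand: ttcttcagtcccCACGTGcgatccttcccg
DDX21, chr10:68956604-68956633, plus strand: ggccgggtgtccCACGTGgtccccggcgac
The windows of HEATR1, POLR1C and NOP16, the members called in all 4 comparisons with control, held no CACGTG. The 250 bases upstream of HEATR1, the member with the largest changes in BE(2)-C cells, are given in full in lower case.
HEATR1, chr1:236604517-236604766, minus strand: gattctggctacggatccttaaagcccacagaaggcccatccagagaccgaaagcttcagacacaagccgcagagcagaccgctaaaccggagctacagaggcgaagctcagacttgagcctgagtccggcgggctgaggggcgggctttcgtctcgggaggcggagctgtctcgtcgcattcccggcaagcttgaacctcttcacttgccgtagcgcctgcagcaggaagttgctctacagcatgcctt

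Across the series, 36.1% to 41.8% of the probes were detected per array, and replicate arrays correlated at r = 0.985 to 0.994. The HDAC11 probe was near background (97 to 136 intensity units) and was detected on 2 of the 6 IMR-32 control arrays and on no other array, so that the knockdown could not be checked here. MYCN gave 18574 to 24083 units on every array. Its log2 change was between 0.00 and 0.18, and only the 0.18 with siRNA no. 2 in IMR-32 cells passed the test (adjusted p = 0.042). Of 9 adrenergic neuroblast markers, 9 were detected on all 18 BE(2)-C arrays and 8 on all 18 IMR-32 arrays, and of 10 mesenchymal markers 4 were detected on all arrays of either line. Where a value is given for each line, BE(2)-C comes first. The 2 arrays of the BE(2)-C control at 54 h differed most from each other. Their median absolute log2 difference was 0.21 over the 36 detected members, against at most 0.11 in the other 17 groups. Over all probes they had the lowest replicate correlation, r = 0.985. These values do not tell which of the 2 arrays is the odd one. Replicate 1 is called the control array that stood apart below, and the BE(2)-C counts are also given without it. Replicate 2 was left out only among the single arrays described at the end. For the counts at 54 h and the counts of arrays that do not overlap, this was added after the data had been seen.

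Of the 38 members, 36 were detected in at least 1 group, and 35 on all 36 arrays. NPM1 (nucleophosmin) and TCOF1 (treacle, a cofactor of RNA polymerase I) were not well above background with the probes used, so that no level is given for them. The average intensity of the other members lay between 154 units (UTP20, detected on 33 of the 36 arrays) and 7188.5 units. Changes are log2 fold changes of the siRNA against control over the 3 time points, from linear models over 12 arrays in which every probe was tested. A gene is called higher or lower at an adjusted p under 0.05. Both siRNAs were set against the same control arrays of a line, so that their values are given side by side.

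After HDAC11 siRNA no. 2, IMR-32 cells had higher levels of 20 of the 38 members and lower levels of none. Of all 20045 genes, 6.02% were called higher and 7.28% lower, and of the 12521 detected genes 9.52% and 11.5%. The median change of the members was 0.19, against 0.00 for all genes. Of the small subunit factors, 9 of 11 rose and all 11 changes were above 0, with BYSL, HEATR1, NOB1, NOP14, RRP12, RRP9, UTP18, UTP20 and WDR75 past the test. Of the large subunit factors 5 of 11 rose, of the RNA polymerase I genes 2 of 5, of the snoRNP core proteins 2 of 7 and of the scaffold genes 2 of 4. Relative to the control mean of its time point, the median member was higher on each of the 6 arrays, by 0.16 to 0.25. Of the 20 calls, 17 held in every alternative analysis and without any single array, while GAR1, LYAR and NOP14 lost their calls with median scaling and without any of 10, 6 and 2 of the 12 arrays, respectively.

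BE(2)-C cells with HDAC11 siRNA no. 2 had higher levels of 8 members and lower levels of 2. Of all genes 6.39% were called higher and 7.54% lower, and of the detected genes 10.2% and 12.0%. The members' median change was 0.06. BOP1, HEATR1, MRTO4, NOP16, NOP2, POLR1C, RRP12 and UTP18 rose, and DDX10 and NIP7 fell. The calls of BOP1, POLR1C and UTP18 were lost when any of 7, 9 and 10 of the 12 arrays, respectively, was left out. The difference between the lines was called for 6 members with this siRNA (below). Without the control array that stood apart, 7 members were called higher and 2 lower: BOP1 and POLR1C lost their calls and RRP9 gained one.

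With HDAC11 siRNA no. 1, more members were lower than higher in BE(2)-C cells. Of the 38, 13 fell and 4 rose, where 11.5% of all genes were called lower and 12.9% higher (18.2% and 20.5% of detected genes). The median member changed by -0.06, and each of the 6 arrays had its median member below the control mean of its time point. The snoRNP core proteins were all 7 below 0 and 4 of them fell, namely DKC1, FBL, NHP2 and NOP56, the enzymes and core subunits that pseudouridylate or methylate ribosomal RNA. Of the small subunit factors DDX10, RRP9, UTP15 and UTP18 fell, of the large subunit factors NIP7, NOP16, PPAN and RRS1, and of the scaffold genes LYAR. HEATR1, NOLC1, POLR1C and WDR12 rose. Without the control array that stood apart, 4 were called higher and 12 lower: DKC1 and RRS1 lost their calls and MRTO4 gained one. The RRS1 call was lost without any of 7 of the 12 arrays, that of RRP9 without any of 2, and that of NOLC1 with median scaling.

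In IMR-32 cells, 6 members were higher and 6 lower with HDAC11 siRNA no. 1. Of all genes, 13.3% were called higher and 10.9% lower, and of the detected genes 20.8% and 17.1%, so that the members' share was near or below the background on both sides. The members' median was -0.04. DDX21, HEATR1, NOB1, NOLC1, POLR1C and WDR12 rose, and LYAR, MRTO4, NIP7, NOP16, NOP56 and UBTF fell. The calls of DDX21, NIP7 and NOP16 were lost without any of 9, 7 and 3 of the 12 arrays, respectively.

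For 13 members 2 or more probes were detected. All their probes gave one call for 12 of the 13 with siRNA no. 1 and 12 with siRNA no. 2 in BE(2)-C cells, and for 11 and 12 in IMR-32 cells. The exceptions were NOP56 and POLR1C in BE(2)-C cells, GAR1 and UBTF with siRNA no. 1 in IMR-32 cells, and GAR1 with siRNA no. 2.

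**Figure D1:**
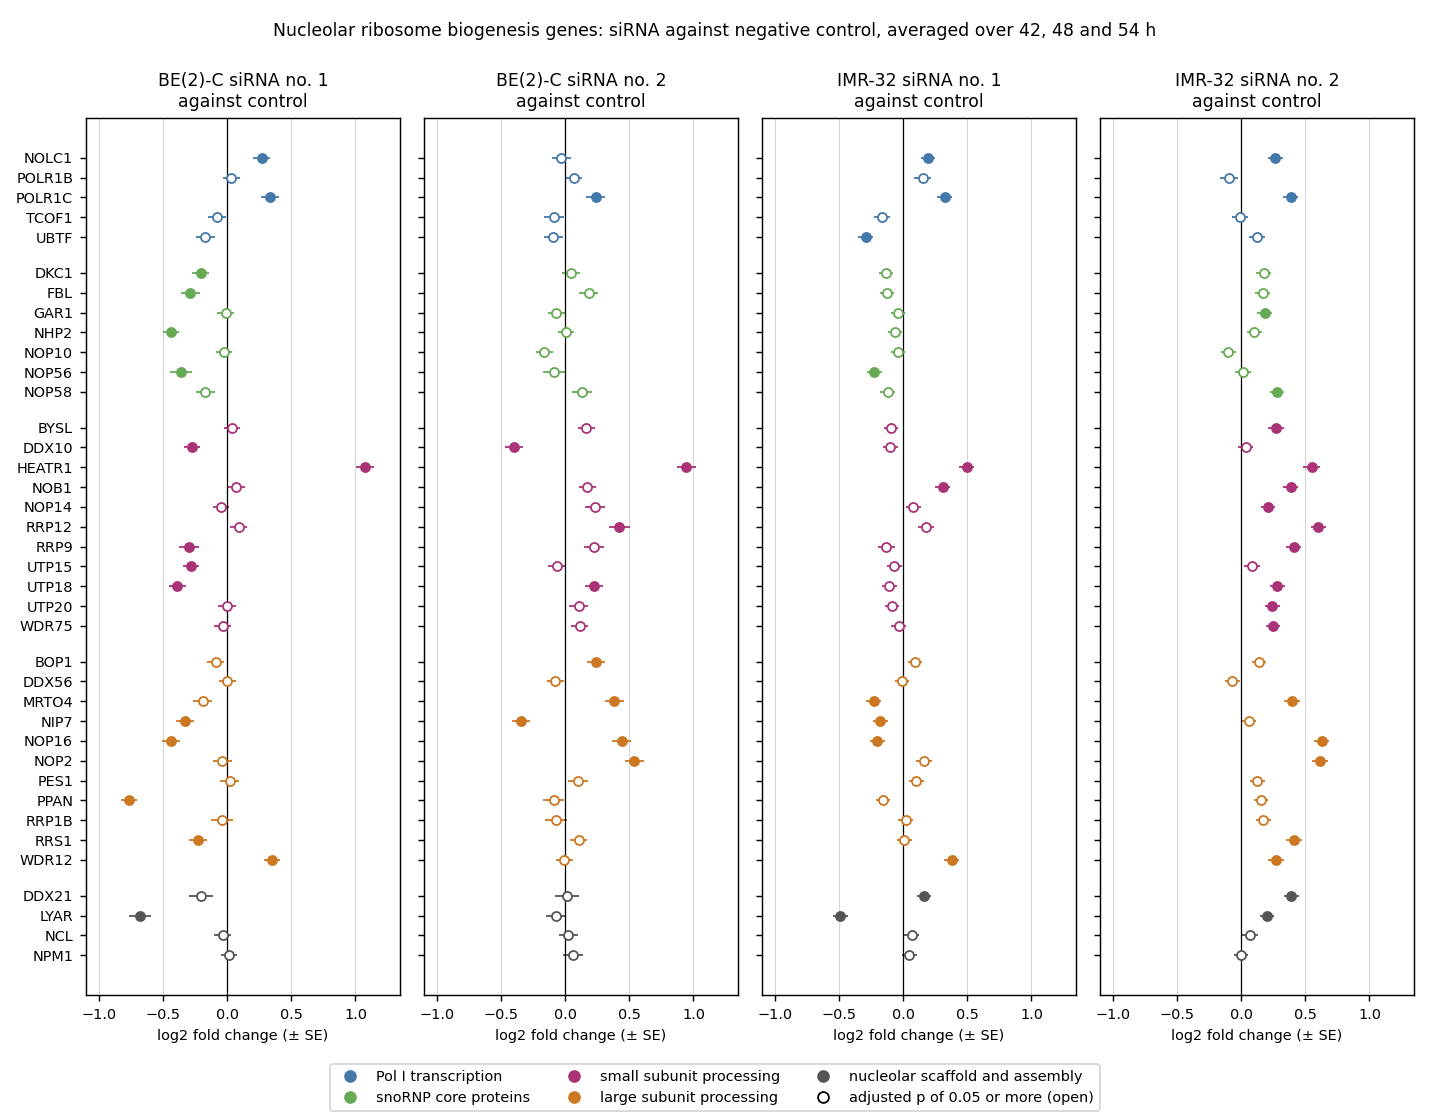
Log2 fold change with its standard error for the 38 members, ordered by role, in the 4 comparisons of an HDAC11 siRNA with the control siRNA. IMR-32 cells with siRNA no. 2 had 20 members called higher and none lower, while siRNA no. 1 gave in BE(2)-C cells 13 lower and 4 higher.

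HEATR1, a small subunit processome protein also needed for transcription of ribosomal DNA, rose with both siRNAs in both lines. It was read from 1 probe, and both siRNAs were set against the same control arrays of a line. BE(2)-C control cells gave 653, 597, 606, 529, 636 and 485 units on the 6 arrays, in the order 42, 48 and 54 h with 2 arrays each. With siRNA no. 1 the values were 1208, 1259, 1173, 1179.7, 1289.5 and 1249. With siRNA no. 2 they were 1158, 1308, 1107, 1085, 1093 and 988. Every siRNA array lay above every control array. The log2 change was 1.08 ± 0.071 (SE, adjusted p = 8.8e-11) with siRNA no. 1. It was 0.95 ± 0.076 (SE, adjusted p = 1.4e-08) with siRNA no. 2. HEATR1 passed the test at each of the 3 time points with both siRNAs. The direct difference between the siRNAs was 0.13 ± 0.061 (SE, adjusted p = 0.17) and did not pass the test.

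IMR-32 control cells started from a higher HEATR1 level. The 6 control arrays gave 1147.5, 1284, 992, 1089.6, 1289.5 and 1217 units. With siRNA no. 1 the values were 1565, 1631.5, 1704, 1559, 1693 and 1699.5, and with siRNA no. 2 1649.7, 1747.5, 1597, 1536, 2152 and 1612. Both sets of siRNA arrays lay above all control arrays. The change was 0.49 ± 0.058 (SE, adjusted p = 3.2e-08) with siRNA no. 1. With siRNA no. 2 it was 0.55 ± 0.065 (SE, adjusted p = 2.2e-07). By the rule that asks for a call at 2 or more time points in one direction with both siRNAs, HEATR1 was the only member regulated in BE(2)-C cells, where 0.449% of all genes were higher and 0.504% lower by this rule. In IMR-32 cells it was regulated together with POLR1C, at 0.259% of all genes higher and 0.474% lower.

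POLR1C, a subunit that RNA polymerases I and III share, rose in all 4 comparisons. In IMR-32 cells, control arrays were 1689 to 1943 units with a median of 1832. The arrays of siRNA no. 1 were 2093 to 2386 units with a median of 2281, and those of siRNA no. 2 were 2127 to 2532 units with a median of 2382. Neither siRNA overlapped with control. The changes were 0.33 ± 0.057 (SE, adjusted p = 4.5e-05) and 0.39 ± 0.058 (SE, adjusted p = 1.2e-05). The BE(2)-C control arrays were 1416 to 1814 units with a median of 1750.1. With siRNA no. 1 they were 1860.1 to 2358 units with a median of 2124, above all controls, and with siRNA no. 2 1790.0 to 2275 units with a median of 2018, which overlapped the controls. The changes were 0.33 ± 0.069 (SE, adjusted p = 0.00088) and 0.24 ± 0.073 (SE, adjusted p = 0.042), the latter with the fragile call described above. The second detected POLR1C probe gave 0.24 in that comparison, with adjusted p = 0.063.

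NOLC1, a nucleolar phosphoprotein that chaperones snoRNPs, rose with siRNA no. 1 in both lines (0.27 and 0.20), and with siRNA no. 2 it rose by 0.27 in IMR-32 cells. UBTF, the factor that binds ribosomal DNA promoters, was called against control only with siRNA no. 1 in IMR-32 cells, where it fell by 0.29, and its other detected probe did not share the call. POLR1B, the polymerase's second largest subunit, was called in no comparison with control.

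**Figure D2:**
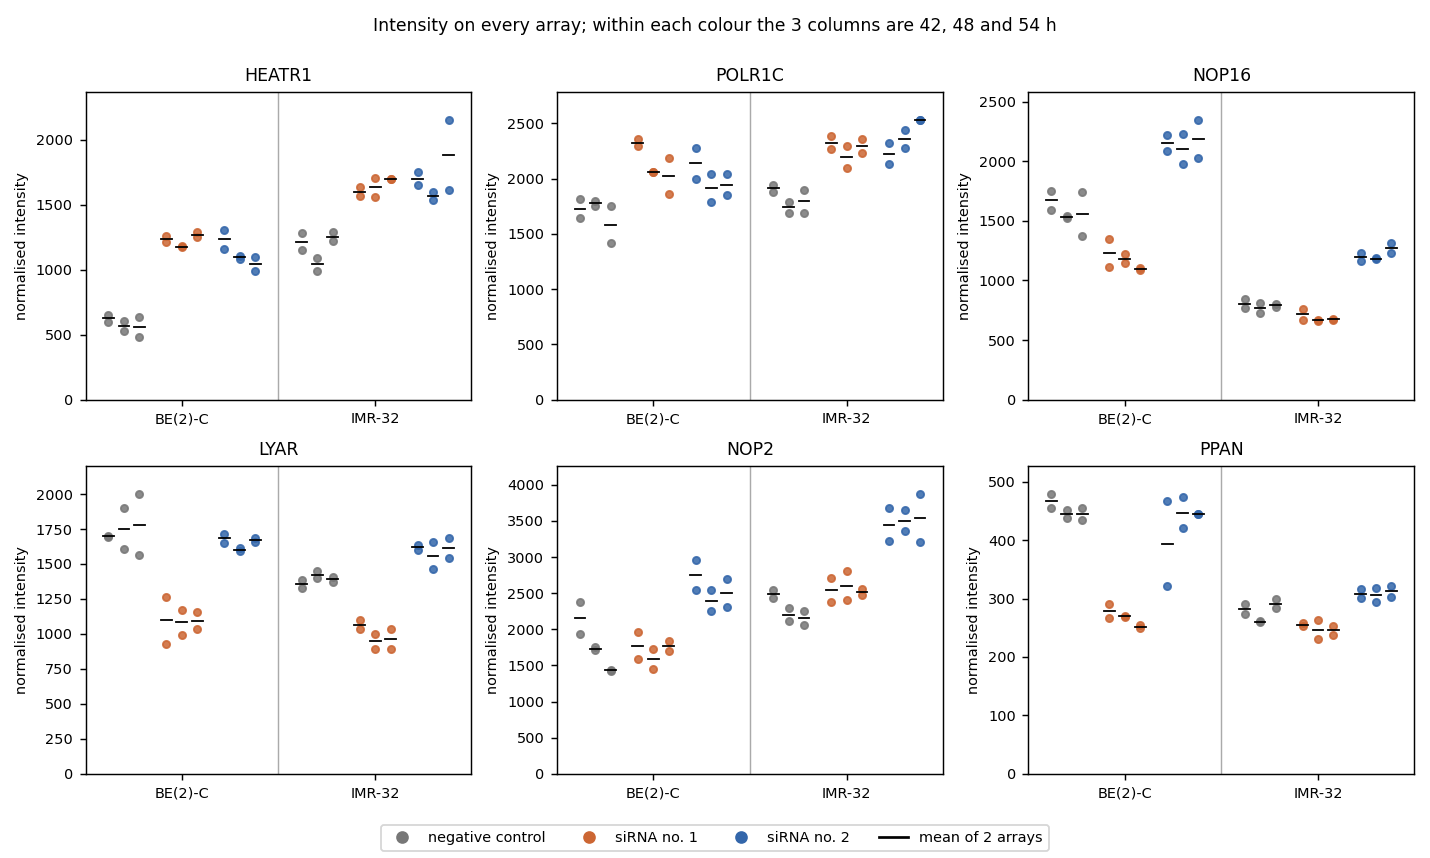
Normalized intensity on each array, on a linear axis, for members the results turn on, by line, siRNA and time, with 1 point per array. HEATR1 lay above control with both siRNAs in both lines, and NOP16 lay above control with siRNA no. 2 and low with siRNA no. 1.

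NOP16, a large subunit assembly factor, was the member the siRNAs moved furthest apart, in opposite directions. Its BE(2)-C control arrays were 1369.6 to 1755 units with a median of 1566. With siRNA no. 1 they were 1090.5 to 1345 units with a median of 1131. With siRNA no. 2 they were 1979 to 2350.3 units with a median of 2154. The 3 sets did not overlap. NOP16 fell by 0.44 ± 0.072 (SE, adjusted p = 6.4e-05) with siRNA no. 1. It rose by 0.44 ± 0.074 (SE, adjusted p = 0.00026) with siRNA no. 2. The direct comparison, siRNA no. 1 minus siRNA no. 2, was -0.88 ± 0.067 (SE, adjusted p = 4.3e-11). Both moves were larger than the spread between arrays. In IMR-32 cells the control arrays were 726 to 841 units with a median of 791. With siRNA no. 1 the range was 657.5 to 765 units with a median of 671, which overlapped the controls, and with siRNA no. 2 it was 1164 to 1312 units with a median of 1209.9, above both. The changes were -0.20 ± 0.058 (SE, adjusted p = 0.012) and 0.63 ± 0.058 (SE, adjusted p = 1.3e-09). The second NOP16 probe was called in the same direction in all 4 comparisons, at -0.36 and -0.22 with siRNA no. 1 and at 0.55 and 0.66 with siRNA no. 2.

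NOP2, a methyltransferase of large subunit ribosomal RNA, rose with siRNA no. 2 in both lines. Among BE(2)-C arrays the 6 controls were 1423 to 2372 units with a median of 1733, and those of siRNA no. 2 were 2248 to 2961 units with a median of 2537.5. The sets overlapped at their edges. The change was 0.54 ± 0.074 (SE, adjusted p = 2.2e-05). In IMR-32 cells the arrays of siRNA no. 2 (3207 to 3873.5 units with a median of 3502) lay above all controls (2059.9 to 2550.2 units with a median of 2271). The change was 0.61 ± 0.062 (SE, adjusted p = 8.9e-09). NOP2 did not pass the test with siRNA no. 1 in either line (-0.04 and 0.16, adjusted p = 0.87 and 0.065).

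RRP12, a small subunit export and maturation factor, also rose with siRNA no. 2 in both lines. Its BE(2)-C control arrays were 394 to 495 units with a median of 465 and those of siRNA no. 2 were 525 to 703 units with a median of 596, with no overlap. The change was 0.42 ± 0.081 (SE, adjusted p = 0.00099). In IMR-32 cells control arrays were 365 to 487 units with a median of 421 and those of siRNA no. 2 were 616 to 697 units with a median of 633, again without overlap. The change was 0.60 ± 0.059 (SE, adjusted p = 5.8e-09). RRP12 did not pass the test with siRNA no. 1 (adjusted p = 0.53 and 0.053).

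MRTO4, a large subunit assembly factor related to ribosomal stalk protein P0, rose with siRNA no. 2 in both lines and fell with siRNA no. 1 in IMR-32 cells. The BE(2)-C control arrays were 365 to 491 units with a median of 468 and those of siRNA no. 2 were 518 to 637 units with a median of 588. No array overlapped. The change was 0.38 ± 0.074 (SE, adjusted p = 0.0011). In IMR-32 cells the control arrays were 275 to 355 units with a median of 312, those of siRNA no. 1 were 237 to 304 units with a median of 271 and those of siRNA no. 2 were 369.7 to 472 units with a median of 404. Only siRNA no. 2 stood apart from control. The changes were -0.23 ± 0.060 (SE, adjusted p = 0.0054) and 0.40 ± 0.062 (SE, adjusted p = 2.1e-05).

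UTP18, a small subunit processome protein whose yeast counterpart recruits the nuclear exosome, moved in opposite directions with the siRNAs in BE(2)-C cells. Control arrays were 582 to 712 units with a median of 629. With siRNA no. 1 they were 448 to 523 units with a median of 486, below all controls, and with siRNA no. 2 667.5 to 866 units with a median of 723, which overlapped them. The changes were -0.39 ± 0.066 (SE, adjusted p = 0.00011) and 0.23 ± 0.070 (SE, adjusted p = 0.044). The latter call was lost without any 1 of 10 of the 12 arrays. In IMR-32 cells UTP18 rose with siRNA no. 2 by 0.28 ± 0.058 (SE, adjusted p = 0.001).

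The members that fell most with siRNA no. 1 in BE(2)-C cells were PPAN, LYAR, NHP2 and NOP16. PPAN, a large subunit factor, had control arrays of 434.5 to 479 units with a median of 453. With siRNA no. 1 they were 249 to 289.9 units with a median of 267. All 6 lay below all controls, and the change was -0.76 ± 0.061 (SE, adjusted p = 1.7e-09). With siRNA no. 2 the values were 321 to 474 units with a median of 444 and the change was -0.09 ± 0.079 (SE, adjusted p = 0.67), not past the test. In IMR-32 cells the PPAN change with siRNA no. 1 was -0.16 ± 0.057 (SE, adjusted p = 0.061), also not past it.

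LYAR, a nucleolar zinc finger protein that takes part in pre-ribosomal RNA processing, fell with siRNA no. 1 in both lines. The control arrays of BE(2)-C were 1562 to 2001 units with a median of 1698 and those of siRNA no. 1 were 930.3 to 1264 units with a median of 1094. In IMR-32 cells the control arrays were 1327.5 to 1448 units with a median of 1391 and those of siRNA no. 1 were 893 to 1100.1 units with a median of 1018. There was no overlap in either line. The changes were -0.68 ± 0.084 (SE, adjusted p = 1.4e-06) and -0.49 ± 0.058 (SE, adjusted p = 5.5e-08). With siRNA no. 2, LYAR was called higher in IMR-32 cells at 0.20 ± 0.058 (SE, adjusted p = 0.022), a call lost without any of 6 of the 12 arrays. The second LYAR probe gave -0.61 and -0.58 with siRNA no. 1. With siRNA no. 2 that probe gave 0.01 and 0.22, and was called higher in IMR-32 cells (adjusted p = 0.0091).

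NHP2, a core protein of the H/ACA snoRNPs, fell with siRNA no. 1 in BE(2)-C cells. Control arrays were 5711 to 7249.9 units with a median of 6900.1 and those of siRNA no. 1 were 4599.8 to 5481 units with a median of 4862, with no overlap. The change was -0.44 ± 0.063 (SE, adjusted p = 1.1e-05), and the 4 NHP2 probes gave -0.46 to -0.42. With siRNA no. 2 the change was 0.01 ± 0.066 (SE, adjusted p = 0.98), and with siRNA no. 1 in IMR-32 cells it was -0.06 ± 0.058 (SE, adjusted p = 0.62). DKC1, the pseudouridine synthase of the same particle, gave -0.21 ± 0.066 (SE, adjusted p = 0.034) in BE(2)-C cells with siRNA no. 1, a call lost without any of 8 of the 12 arrays. FBL, the methyltransferase of the C/D snoRNPs, gave -0.29 ± 0.074 (SE, adjusted p = 0.007). NOP56, a C/D core protein, gave -0.36 ± 0.086 (SE, adjusted p = 0.0037), and its other detected probes were not called there.

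WDR12, a subunit of the PeBoW complex of large subunit assembly, rose with siRNA no. 1 in both lines. The BE(2)-C controls were 1844 to 2246 units with a median of 2022 and those of siRNA no. 1 were 2410.3 to 2711 units with a median of 2565, with no overlap. In IMR-32 cells the control arrays were 1109 to 1258 units with a median of 1171, those of siRNA no. 1 were 1399.8 to 1636 units with a median of 1598 and those of siRNA no. 2 were 1299 to 1583 units with a median of 1446, with no overlap with control. The changes were 0.35 ± 0.060 (SE, adjusted p = 0.00012), 0.38 ± 0.060 (SE, adjusted p = 8.9e-06) and 0.27 ± 0.060 (SE, adjusted p = 0.0019). Of the other PeBoW subunits, PES1 was called in no comparison with control, and against control BOP1 was called only with siRNA no. 2 in BE(2)-C cells.

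DDX10, a small subunit RNA helicase, and NIP7, a large subunit factor, were the members that fell with both siRNAs in BE(2)-C cells. DDX10 control arrays were 1332 to 1696 units with a median of 1475. They were 1108 to 1311 units with a median of 1258 with siRNA no. 1 and 1028 to 1255 units with a median of 1141 with siRNA no. 2, with no overlap with control. The changes were -0.27 ± 0.063 (SE, adjusted p = 0.0026) and -0.40 ± 0.069 (SE, adjusted p = 0.00038). NIP7 control arrays were 1317 to 1621 units with a median of 1494. They were 1054 to 1352 units with a median of 1173 and 1017 to 1376 units with a median of 1148 with the siRNAs, which overlapped control. Its changes were -0.33 ± 0.069 (SE, adjusted p = 0.0011) and -0.34 ± 0.068 (SE, adjusted p = 0.0015).

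Of the nucleolar scaffold genes, NCL (nucleolin) was called in no comparison with control. DDX21, a helicase that couples polymerase I transcription to processing, rose in IMR-32 cells by 0.16 with siRNA no. 1 and 0.39 with siRNA no. 2, and gave -0.20 and 0.02 in BE(2)-C cells (adjusted p = 0.20 and 0.97). Without the control array that stood apart the BE(2)-C values were -0.06 and 0.15 (adjusted p = 0.65 and 0.22). On that array DDX21 was 5984 units against 3377 on its replicate, above every other array of the line. In total, 30 members were called in at least 1 of the 4 comparisons and 8 in none (DDX56, NCL, NOP10, NPM1, PES1, POLR1B, RRP1B and TCOF1). Of the latter, NPM1 and TCOF1 were not well above background, so that a change in them could not be read.

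Fewer members were separated on every array. IMR-32 cells with siRNA no. 2 had 16 members with all 6 siRNA arrays above all 6 control arrays and 0 below (3.57% and 4.53% of all genes). The counts with siRNA no. 1 were 6 above and 2 below (8.22% and 7.37%). For BE(2)-C there were 4 above and 2 below with siRNA no. 2 (2.79% and 3.69%), and 3 above and 7 below with siRNA no. 1 (7.09% and 6.58%). Without the control array that stood apart, they were 5 above and 2 below with siRNA no. 2 (3.6% and 4.67%), and 4 above and 8 below with siRNA no. 1 (8.46% and 7.99%).

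At single time points fewer members passed the test, and they were most numerous at 54 h in 3 of the 4 comparisons. IMR-32 cells with siRNA no. 2 had 5 members higher at 42 h (0.778% of all genes), 6 at 48 h (1.37%) and 12 at 54 h (2.32%), and 0 lower at each (1.38%, 1.95% and 3.68%). BE(2)-C cells with siRNA no. 2 had 1 higher at 42 h (0.983%), 1 at 48 h (1.3%) and 5 at 54 h (2.92%), with 0, 0 and 2 lower (1.65%, 2.18% and 3.23%). With siRNA no. 1 the calls ran in both directions. For BE(2)-C, 3, 2 and 1 were called higher (5.67%, 6.03% and 8.03%) and 3, 3 and 9 called lower (5.6%, 6.07% and 6.89%). Without the control array that stood apart, the BE(2)-C counts at 54 h became 2 higher and 5 lower with siRNA no. 1 (7.05% and 6.37% of all genes), and 3 higher and 0 lower with siRNA no. 2 (1.44% and 2.13%). For IMR-32, 2, 3 and 4 were called higher (5.13%, 6.65% and 6.78%) and 2, 3 and 1 called lower (4.88%, 6.14% and 6.49%). The effect at 54 h was also tested against the effect at 42 h, and in limma no gene passed in any of the 4 comparisons (0% of all genes in either direction), members included.

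The siRNAs were compared directly over the 12 siRNA arrays of each line, with no control array. BE(2)-C cells had lower levels of 18 members with siRNA no. 1 than with siRNA no. 2, and higher levels of 2, against 13.7% and 16.1% of all genes (21.5% and 25.3% of detected genes). For IMR-32 the counts were 20 lower and 1 higher (13.1% and 15.1% of all genes, 20.6% and 23.5% of detected genes). The members' median differences were -0.14 and -0.23. Lower in both lines were 14 members (8.33% of all genes) and higher in both 0 (9.32%). The 14 were DDX21, DKC1, FBL, LYAR, MRTO4, NOP16, NOP2, NOP56, NOP58, PPAN, RRP12, RRP9, RRS1 and UTP18. The arrays of the lines are separate, so that these 2 comparisons share none. Of the calls, 18 of 20 in BE(2)-C and 21 of 21 in IMR-32 cells held in every alternative and without any single array.

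The largest of these differences were -0.88 ± 0.067 (SE, adjusted p = 4.3e-11) for NOP16, -0.67 ± 0.075 (SE, adjusted p = 4.6e-08) for PPAN and -0.62 ± 0.066 (SE, adjusted p = 2.7e-08) for UTP18 in BE(2)-C cells. For IMR-32 they were -0.83 ± 0.058 (SE, adjusted p = 6.3e-14) for NOP16, -0.69 ± 0.062 (SE, adjusted p = 2.6e-11) for LYAR and -0.62 ± 0.067 (SE, adjusted p = 1.7e-09) for MRTO4. NOLC1 and WDR12 were higher with siRNA no. 1 in BE(2)-C cells, and POLR1B in IMR-32 cells. HEATR1 and POLR1C did not differ past the test between the siRNAs in either line: HEATR1 gave -0.06 ± 0.064 (SE, adjusted p = 0.7) and POLR1C -0.06 ± 0.059 (SE, adjusted p = 0.62) in IMR-32 cells.

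**Figure D3:**
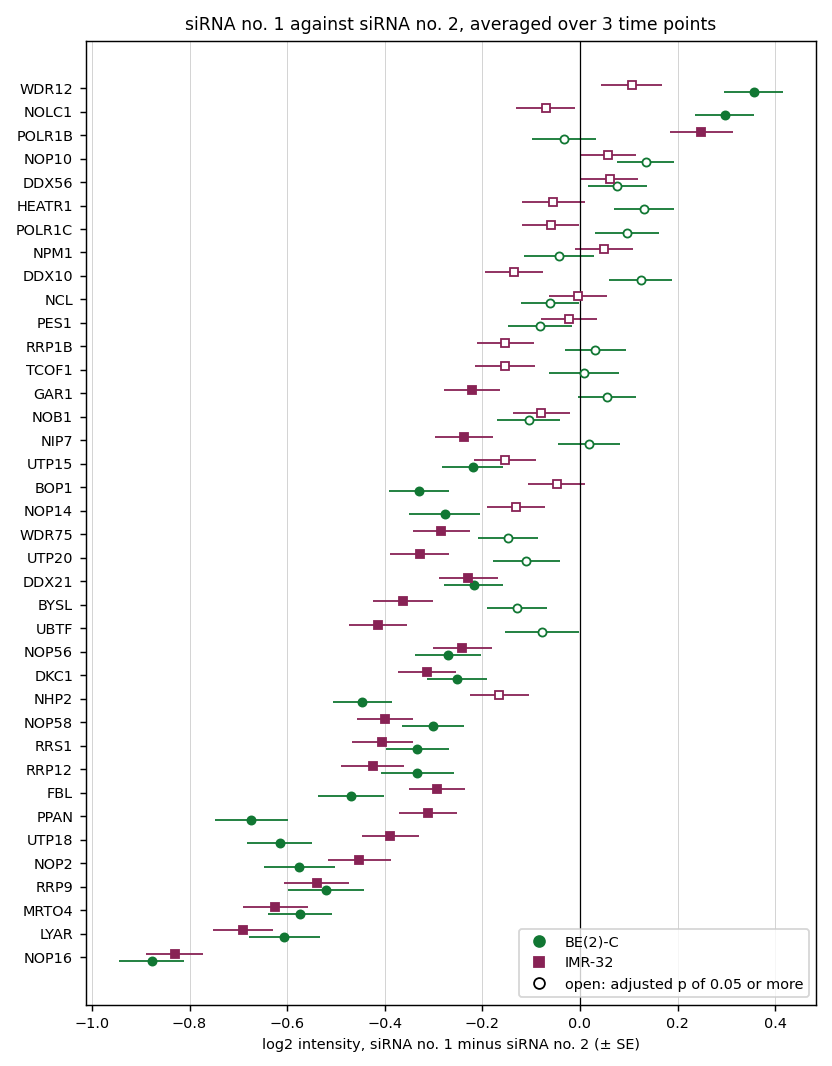
Log2 difference of siRNA no. 1 minus siRNA no. 2 with its standard error for each member in both lines. 14 members were lower with siRNA no. 1 in both lines, with NOP16 at -0.88 and -0.83 furthest from 0.

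The lines differed in the effect of siRNA no. 1 for 5 members and of siRNA no. 2 for 6, in an interaction over all 36 arrays. With siRNA no. 1 the effect in BE(2)-C cells was higher for HEATR1 and lower for DDX21, NHP2, PPAN and UTP18. The shares there were 6.3% and 6.75% of all genes, and 9.95% and 10.7% of detected genes. The members' counts with siRNA no. 1 were thus near or below the shares of detected genes. With siRNA no. 2 the effect was higher for HEATR1 and lower for DDX10, DDX21, NIP7, NOLC1 and RRS1. Of all genes 2.34% were called higher and 2.54% lower, and of the detected genes 3.71% and 4.02%. The HEATR1 difference with siRNA no. 2 was lost with median scaling. The median difference over the members was -0.10 and -0.14. Without the control array that stood apart, 1 member was higher and 4 lower with siRNA no. 1 (DDX21 and UTP18 lost their calls, NOB1 and NOP16 gained them), and 1 higher and 3 lower with siRNA no. 2 (DDX21, NOLC1 and RRS1 lost theirs, GAR1 gained one).

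Control cells of BE(2)-C had higher levels of 21 members and lower levels of 8 than those of IMR-32 (18.9% and 20.8% of all genes), and without the array that stood apart 19 and 8. With each array scaled to the same median the split was 10 higher and 10 lower, and with the lines normalized separately 10 and 11, so that the excess of higher calls rested on the scaling. NOP16 was 1.01 ± 0.068 (SE, adjusted p = 1.5e-11) higher and HEATR1 was -1.003 ± 0.072 (SE, adjusted p = 4.6e-11), that is, lower in BE(2)-C cells. WDR12 was 0.77 ± 0.061 (SE, adjusted p = 2.6e-10) higher. These calls held under every scaling. Among control arrays alone, 54 h against 42 h, NOP2 was called lower in BE(2)-C cells (-0.58, at 0.524% of genes higher and 1.42% lower). The call was lost without any of 5 of the 6 control arrays, and without the one that stood apart the difference was -0.59 (adjusted p = 0.089). In the same comparison limma called no gene in IMR-32 cells (0% of genes in either direction).

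Other genes of the machinery, from lists chosen by function, were counted beside the members, with the shares of all genes as given above for each comparison. IMR-32 cells with siRNA no. 2 had higher levels of 18 of 38 other small subunit factors and 20 of 42 other large subunit factors and lower levels of none, and 4 of 12 other RNA polymerase I genes rose and 1 fell. The same siRNA gave 8, 10 and 4 higher and 0, 0 and 1 lower in BE(2)-C. The largest changes were those of PNO1 (0.59 and 0.57), a small subunit factor, and RPF2 (0.50 and 0.58), a large subunit factor. With siRNA no. 1, 12 of the other small subunit factors fell and 4 rose among BE(2)-C arrays, and 10 fell and 2 rose among those of IMR-32. Of the other large subunit factors 7 fell and 6 rose, and 5 fell and 6 rose. The largest were EMG1, a ribosomal RNA methyltransferase (-1.36 and -0.52), NOC3L (-1.19 and -0.83) and POLR1F, a polymerase I subunit (-1.04 and -0.73). POLR1F rose with siRNA no. 2, by 0.48 and 0.29.

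Ribosomal protein genes were counted in the same way. With siRNA no. 2, 6 of 68 cytoplasmic ribosomal protein genes rose and 3 fell in IMR-32, and 3 and 3 in BE(2)-C, against 6.02% and 7.28% of all genes in IMR-32 and 6.39% and 7.54% in BE(2)-C. RPS28 changed by -1.19 and -0.65 with siRNA no. 2. Among IMR-32 arrays of siRNA no. 1, 17 were higher and 1 lower, and among those of BE(2)-C 6 and 3, against 13.3% and 10.9% of all genes in IMR-32 and 12.9% and 11.5% in BE(2)-C. Of 11 genes of the MYC network, BE(2)-C cells had 1 called lower after siRNA no. 1 and 2 after siRNA no. 2, none higher. IMR-32 cells had 2 called higher after either siRNA, with 1 lower for no. 1 and 2 for no. 2. One of these, MXD3, a MAX dimerization protein, fell in all 4 comparisons, at -0.48 and -0.54 with siRNA no. 1 and at -0.78 and -0.42 with no. 2.

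**Figure D4:**
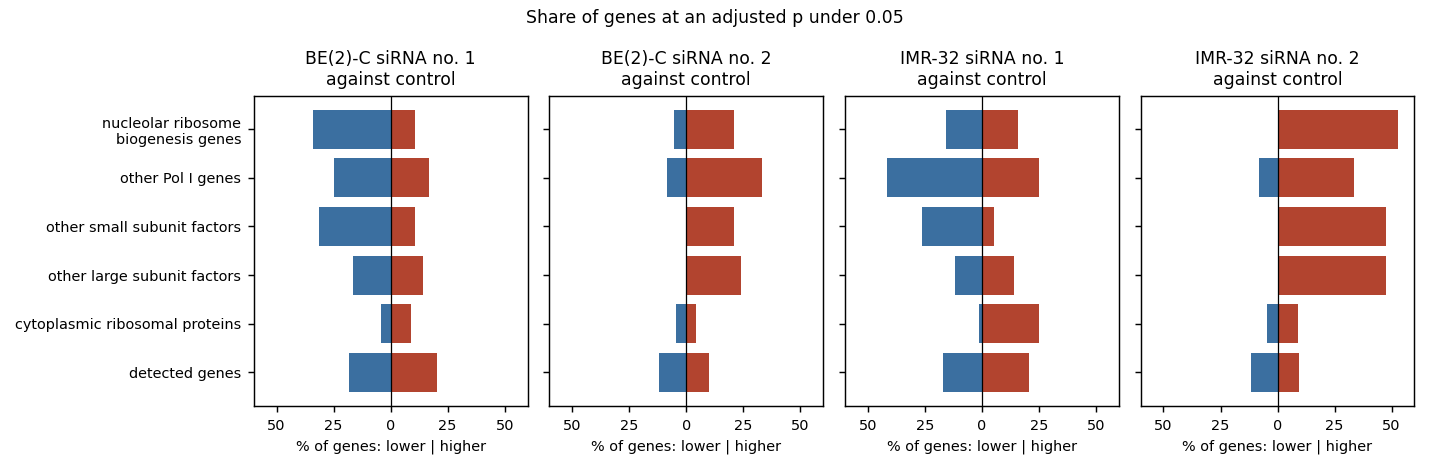
Percent of the genes in each list called higher or lower at an adjusted p under 0.05, by comparison. The lists are the members, the other biogenesis factors, the ribosomal proteins and the 12521 detected genes. IMR-32 cells with siRNA no. 2 had 20 of 38 members, 18 of 38 other small subunit and 20 of 42 other large subunit factors higher, against 6 of 68 ribosomal proteins.

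The E-box was read beside the calls. Among IMR-32 calls with siRNA no. 2, 10 of the 16 members that rose and have a window carried CACGTG (62.5%), against 3 of the 15 that did not pass the test (20.0%). Over all genes tested with a window, the share was 21.7% of the 952 called higher, 11.7% of the 1209 called lower and 10.0% of the 12872 called neither. Among BE(2)-C calls with siRNA no. 1, 4 of 12 members that fell carried it (33.3%), 0 of 3 that rose and 9 of 16 that did not pass the test (56.2%), so that the motif was more frequent among members that were not called. The shares of all genes there were 12.8% of those called higher, 13.8% of those called lower and 10.1% of the others. For IMR-32 with siRNA no. 1 it lay in 1 of 5 members that rose, 2 of 6 that fell and 10 of the 20 others. Over all genes, it lay in 14.7% of those called higher, 12.5% of those called lower and 9.9% of the others. For BE(2)-C with siRNA no. 2 it lay in 3 of 6 members that rose, 0 of 2 that fell and 10 of the 23 others. The corresponding shares of all genes were 14.5%, 12.4% and 10.5%. These are descriptions with no test.

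Marker levels are given without a test. The summed intensity of the adrenergic markers had a median of 45171 in BE(2)-C controls (41402 to 49631), 52835 with siRNA no. 1 (51253 to 56164) and 53427.5 with siRNA no. 2 (50343 to 55986). In IMR-32 cells it was 12387 in controls (11794 to 12572), 16085 with siRNA no. 1 (15771 to 16277) and 13444 with siRNA no. 2 (12653 to 14080.1). The summed mesenchymal markers were 7145 in BE(2)-C controls (6983 to 8310.4), 9084 with siRNA no. 1 (8543 to 9457.5) and 7225 with siRNA no. 2 (6475 to 7752), and between 9825 and 11244 on all IMR-32 arrays. The ranges of the siRNAs overlapped for the adrenergic sum in BE(2)-C cells and for the mesenchymal sum in IMR-32 cells, and were apart for the others. Of the mesenchymal markers, VIM, SNAI2, TWIST1 and THY1 were detected on all 36 arrays, CD44, COL1A1, COL3A1 and PRRX1 on some, and FN1 and YAP1 on none. The part of these levels in the results was not tested.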

How the data were processed

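RNA of 36 samples was hybridised to Illumina HumanHT-12 arrays. The authors removed outlying beads and took the mean of the others. The deposited table holds these averages as linear intensities without normalization, each with a deposited detection p-value. The authors also deposited a normalized series matrix, used as an alternative. Intensities of 47320 probes (3 with blank or 0 values left out) were quantile-normalized over the 36 arrays and set on the log2 scale, without background correction. A probe was detected at a detection p under 0.01 with its signal above the background centre. limma 3.58.1 in R 4.3.3 was fitted per siRNA and cell line on 12 arrays (6 residual degrees of freedom). The differences between the lines in the effect of a siRNA were fitted on 36 (18). Control cells of the lines were compared on the 12 control arrays, and 54 h with 42 h on the 6 control arrays of a line. Benjamini-Hochberg adjustment of the p-values covered all probes. A gene was represented by its brightest probe. Values are given for the members with the largest called changes or differences and for those regulated with both siRNAs, and the text names every other member by its calls. The fitting was tested on simulated data. Alternatives were other normalizations, background correction, variance models, probe rules, sample sets, thresholds, replicate blocks and single arrays left out. The number of arrays limits the precision. Members, lists and tests were chosen with earlier results of these data known. The replicate numbers did not pair the arrays.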

Additional observations from a re-analysis of the deposited data

Results flagged for a closer look

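The members below were set apart because the effect of a siRNA differed between the cell lines in a test of that difference (limma, all 36 arrays). The value is the log2 effect in BE(2)-C cells minus that in IMR-32 cells, followed by the effect in each line.

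With siRNA no. 1, PPAN differed by -0.61 ± 0.092 (SE, adjusted p = 3.2e-06), from -0.76 in BE(2)-C against -0.16 in IMR-32. HEATR1 differed by 0.58 ± 0.096 (SE, adjusted p = 1.4e-05), from 1.08 in BE(2)-C against 0.49 in IMR-32. NHP2 differed by -0.38 ± 0.083 (SE, adjusted p = 0.0013), from -0.44 in BE(2)-C against -0.06 in IMR-32. DDX21 differed by -0.37 ± 0.109 (SE, adjusted p = 0.023), from -0.20 in BE(2)-C against 0.16 in IMR-32, and without the BE(2)-C control array of 54 h, replicate 1, the BE(2)-C effect was -0.06. UTP18 differed by -0.28 ± 0.088 (SE, adjusted p = 0.035), from -0.39 in BE(2)-C against -0.11 in IMR-32.

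With siRNA no. 2, DDX10 differed by -0.43 ± 0.086 (SE, adjusted p = 0.001), from -0.40 in BE(2)-C against 0.04 in IMR-32. NIP7 differed by -0.41 ± 0.087 (SE, adjusted p = 0.0024), from -0.34 in BE(2)-C against 0.06 in IMR-32. HEATR1 differed by 0.40 ± 0.096 (SE, adjusted p = 0.009), from 0.95 in BE(2)-C against 0.55 in IMR-32. DDX21 differed by -0.38 ± 0.109 (SE, adjusted p = 0.041), from 0.02 in BE(2)-C against 0.39 in IMR-32. RRS1 differed by -0.30 ± 0.089 (SE, adjusted p = 0.046), from 0.11 in BE(2)-C against 0.41 in IMR-32. NOLC1 differed by -0.30 ± 0.087 (SE, adjusted p = 0.048), from -0.03 in BE(2)-C against 0.27 in IMR-32.

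The differences of PPAN and NHP2 with siRNA no. 1, of HEATR1 with siRNA no. 1, and of DDX10 and NIP7 with siRNA no. 2 held in every alternative analysis and without any single array. That of HEATR1 with siRNA no. 2 was lost with each array scaled to the same median. The calls of DDX21 and UTP18 with siRNA no. 1 and of DDX21, NOLC1 and RRS1 with siRNA no. 2 were lost in several alternatives and without many single arrays. With siRNA no. 1, that of DDX21 was lost without any of 6 of 24 arrays and that of UTP18 without any of 14. With siRNA no. 2, those of DDX21 and RRS1 were each lost without any of 16 and that of NOLC1 without any of 20. Without the BE(2)-C control array of 54 h, replicate 1, which is among these arrays for each, DDX21 differed by -0.23 with siRNA no. 1 (adjusted p = 0.099) and -0.24 with siRNA no. 2 (adjusted p = 0.14). The others differed without it by -0.25 (UTP18), -0.25 (NOLC1) and -0.29 (RRS1). The IMR-32 effect of DDX21 passed the test with both siRNAs and its BE(2)-C effect with neither.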

How the results depend on the processing

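No called change reversed its direction in any alternative. Of the 26 counts of members, those of siRNA no. 1 against control, and of siRNA no. 1 against siRNA no. 2, stayed within 1.5 times in both lines in every alternative setting, as did the 20 higher with siRNA no. 2 in IMR-32 cells. The 8 members higher with siRNA no. 2 in BE(2)-C cells became 5 at an adjusted p under 0.01, with median scaling and with normexp background correction. The 2 members regulated with both siRNAs in IMR-32 cells became 1 in these 3 settings and with all 36 arrays in one fit. The 21 members higher in BE(2)-C control cells became 10 with median scaling and 10 with quantile normalization within each line. Of the differences between lines, the 4 lower with siRNA no. 1 became 2 at an adjusted p under 0.01, with median scaling and with normexp. The 5 lower with siRNA no. 2 became 2 in the same settings and 3 with the replicate block within time points, and the 1 higher became 0 with median scaling. In BE(2)-C controls, 54 h against 42 h, the 0 higher became 4 with all 36 arrays in one fit and 1 with the replicate block. The 1 lower became 4 with all 36 arrays, 2 with normalization within each line and 2 with the replicate block, and 0 at an adjusted p under 0.01, with detected probes, with the trended robust prior, with median scaling and with normexp. The cause was not tested.

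The replicate numbers were not used as a pairing: same-numbered arrays deviated together with r of -0.025 to 0.13, over 0.1 in 2 of 18 values. The block within time points was not possible for comparisons of control arrays alone.

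Leaving out single arrays gave 4 to 4 higher and 10 to 15 lower members for siRNA no. 1 and 5 to 8 higher and 2 to 2 lower for siRNA no. 2 in BE(2)-C cells, where 5 were left without the control of 42 h, replicate 1, the control of 48 h, replicate 2, or the siRNA array of 54 h, replicate 2. For IMR-32 it gave 5 to 7 and 4 to 6 for siRNA no. 1, and 18 to 21 and 0 to 0 for siRNA no. 2. siRNA no. 1 against no. 2 gave 2 to 2 higher and 17 to 18 lower in BE(2)-C, and 1 to 1 and 20 to 23 in IMR-32 cells. The line differences gave 1 to 1 and 2 to 4 with siRNA no. 1, and 1 to 1 and 2 to 8 with siRNA no. 2 (8 without the BE(2)-C control of 54 h, replicate 2). Control cells of the lines gave 17 to 20 and 8 to 9. Time in BE(2)-C controls gave 0 to 4 and 0 to 3, and in IMR-32 controls 0 to 0 for both. Regulated members were 1 to 1 in BE(2)-C and 1 to 2 in IMR-32 cells, with 0 to 0 lower.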
